A study of Homo sapiens with 2 samples.

Results

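The cytosolic ribosomal protein genes were taken as the rows of the gene table whose symbol is RPL or RPS followed by a number and at most a final A, L or X, together with RPLP0, RPLP1, RPLP2 and RPSA. The rule found 79 of the 28038 listed genes, 48 of the large (60S) subunit and 31 of the small (40S) subunit. RNA was sequenced from 1 culture made to overexpress IGF2BP3 and 1 control culture that received a blank viral vector, both of the labelled line OVCAR-3, which was derived from a human ovarian carcinoma and is long established. The type of vector, the selection of the cells and whether a culture came from 1 clone are not stated in the labels. IGF2BP3, which binds m6A-marked mRNA, had 6376 counts in the overexpression library, against 2944 in the control library, a ratio of 1.96 (95% counting interval 1.84 to 2.09). Each group is a single library, so every difference below is between 2 libraries, and no p-value was computed.

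A ribosome is built from ribosomal RNA and one copy of nearly every protein of the 2 subunits, so cells make these proteins in balanced amounts. Their mRNAs are short, abundant and stable, and most begin with a terminal oligopyrimidine (TOP) tract, through which mTOR and LARP1 set their translation together. Each human ribosomal protein is typically made from a single intron-containing gene, and that gene has left many intronless processed pseudogenes elsewhere in the genome.

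The start sites show what the family shares. Of the 79 genes 63 had an entry among RefSeq's promoters (GRCh38.p14). A run of at least 7 pyrimidines (C or T) was sought that begins with C within 10 bases of an annotated start, read in the direction of the mRNA only. Such a run may end before the start, so it need not begin the mRNA. One stood at a start site of 52 of these 63 genes (82.5%), against 4471 of 27305 genes with an entry (16.4%). The share was 32 of 39 in the 60S genes and 20 of 24 in the 40S genes. The windows below hold the 15 bases before and the 15 from an annotated start of 6 members that the results turn on, 5′ to 3′, with the pyrimidine run in capitals; in RPL7A it goes on past the window.
RPS12 (chr6:132814554-132814583, plus strand): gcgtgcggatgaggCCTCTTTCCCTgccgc
RPL21 (chr13:27251543-27251572, plus strand): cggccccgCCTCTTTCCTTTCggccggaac
RPL7A (chr9:133348203-133348232, plus strand): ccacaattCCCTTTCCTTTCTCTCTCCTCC
RPS9 (chr19:54200843-54200872, plus strand): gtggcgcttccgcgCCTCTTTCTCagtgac
RPS10 (chr6:34426055-34426084, minus strand): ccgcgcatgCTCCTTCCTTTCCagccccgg
RPL36A (chrX:101390996-101391025, plus strand): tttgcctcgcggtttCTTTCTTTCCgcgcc
All 6 carry the run, although per kilobase of gene length RPS12 had the highest level of the family and RPL7A, RPS9, RPS10 and RPL36A were among the lowest. The run was not found at the start of RPS4X, the member with the second highest level on that scale, nor at those of the low members RPL17, RPL10L and RPS27L. In RPL17 a pyrimidine run begins before the 10 bases searched, so it was not counted.

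The overexpression library held 48017861 listed counts and the control library 43190215. Markers went only in part with an epithelial ovarian line: of 8 chosen epithelial markers 7 were listed, KRT18 stood at 102 and 103 CPM (a gene's counts relative to its library's total, after TMM scaling), and the other 6 were below 5 CPM in both libraries. EPCAM had 56 and 57 counts, and CDH1 had 2 and 2. Of 6 chosen ovarian serous markers 2 were listed, both below 5 CPM in both libraries, PAX8 among them with 32 and 28 counts. Of 5 mesenchymal markers VIM, a filament gene, stood at 2149 CPM in the overexpression library and 2175 CPM in the control library. The others were lower, ZEB1 at 58.9 and 57.1 CPM, CDH2 at 12.5 and 13.1, FN1 at 2.36 and 3.02, and TWIST1 at 0.648 and 1.04, overexpression before control. In bulk RNA, fewer cells of a type and less RNA per cell cannot be told apart.

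Levels between genes were compared as the deposited FPKM, which is per kilobase of the gene length the authors used. The family median was 114 FPKM in the overexpression library and 126 FPKM in the control library, and the order of the members was nearly the same in both (Spearman rho 0.998 across the 79 genes, which are not independent replicates). The 60S genes had a median level of 119 FPKM in the overexpression library and 131 FPKM in the control library. The 40S genes had a median level of 105 FPKM in the overexpression library and 112 FPKM in the control library. Without the 12 low members described below, the order of the subunits turned, to 124 FPKM for 60S against 141 FPKM for 40S in the overexpression library, and 140 FPKM against 149 FPKM in the control library.

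RPS12, a 40S protein whose transcript also hosts small nucleolar RNAs, was the highest member by FPKM. It stood at 949 FPKM in the overexpression library and 1077 FPKM in the control library. RPS4X, the X-linked copy of a 40S protein with a Y-linked partner, followed at 557 FPKM in the overexpression library and 586 FPKM in the control library. RPS6, the 40S substrate of the S6 kinases, stood at 345 FPKM in the overexpression library and 375 FPKM in the control library. RPL41, which encodes one of the smallest known human proteins, led the 60S genes by FPKM. It stood at 455 FPKM in the overexpression library and 505 FPKM in the control library. RPLP0, the base of the stalk that recruits translation factors, stood at 397 and 416 FPKM, RPL8 at 378 and 388 FPKM, and RPL13A at 349 and 377 FPKM, again with the overexpression library first. All 7 of these genes had the lower level in the overexpression library, although the counting interval of the ratio held 1 for RPL8. The order of the members depends on gene length. Without length, RPL4 stood at 1697 CPM in the overexpression library and 1763 CPM in the control library, above RPL41 at 506 and 558 CPM. The lengths behind their FPKM were 5609 bases for RPL4 and 1108 for RPL41, as worked out from the deposited counts and FPKM.

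**Figure D1:**
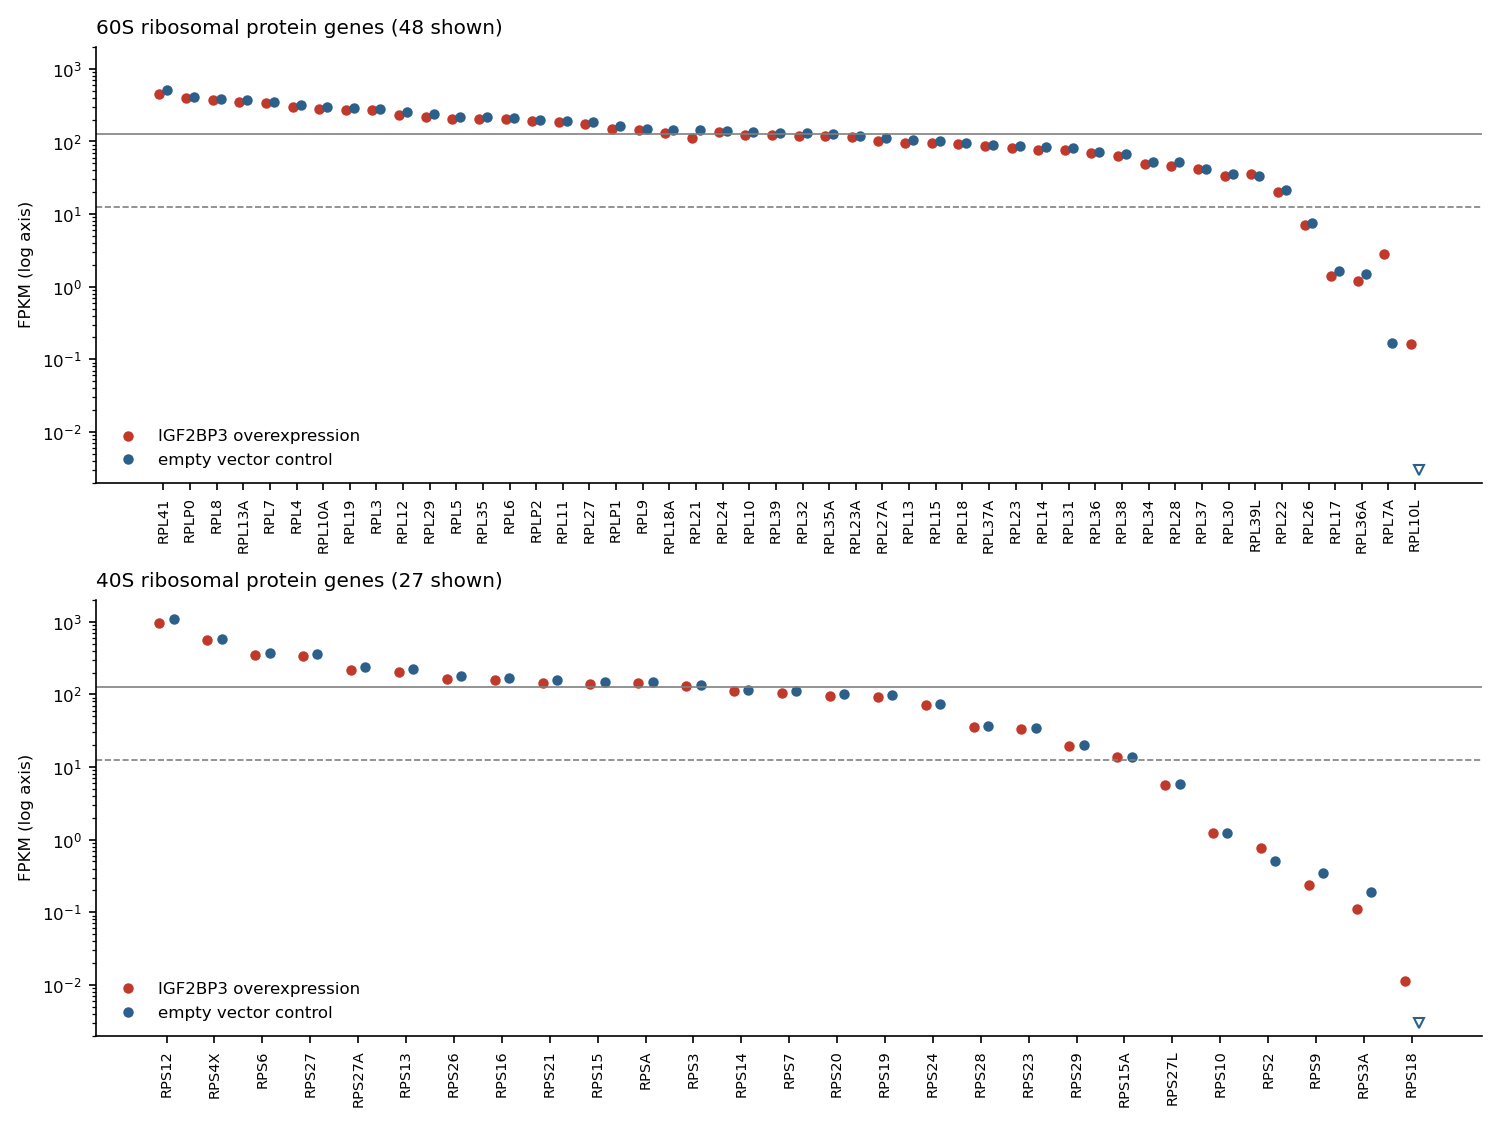
Deposited FPKM (log axis) of 48 genes of the 60S subunit and 27 of the 40S subunit, ordered by their control level, in the overexpression library (red) and the control library (blue). The solid line is the family median in the control library, 126 FPKM, the dashed line 0.1 times it, and open triangles mark genes listed at 0; most members lie close together, and 11 of those drawn lie below the dashed line in both libraries.

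The family took a slightly smaller share of the overexpression library. All 79 rows together held 3.56% of its counts (95% exact Clopper-Pearson counting interval 3.55 to 3.57), against 3.79% of the control library's (3.78 to 3.79). The 60S rows held 2.32% in the overexpression library (2.32 to 2.33) and 2.47% in the control library (2.47 to 2.48). The 40S rows held 1.24% in the overexpression library (1.23 to 1.24) and 1.31% in the control library (1.31 to 1.32). The summed counts of the 60S genes were 1.88 times those of the 40S genes in the overexpression library (1.87 to 1.89) and 1.88 times in the control library (1.88 to 1.89). The balance of the subunits thus did not differ beyond counting error, which is the only error these intervals cover. Reads were amplified by PCR without molecular identifiers and are not independent molecules.

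Differences between the libraries were log2 ratios, overexpression over control, after adding 1 to each CPM. They were taken where both libraries together held at least 50 counts, a minimum that 75 of the 79 members and 14157 genes in all passed. The 47 measured 60S genes had a median log2 ratio of -0.08 and the 28 measured 40S genes one of -0.07, a gap of -0.0098. The median over all 14157 genes was 0.0042. Of the 75 members 70 were below 0, 44 of the 60S and 26 of the 40S genes, where 48.9% of all measured genes were below 0. Of 2124 other genes of at least 100 CPM in both libraries 892 were below 0, with a median log2 ratio of 0.02. Beside this, the 16 measured genes with an MT- symbol had a median log2 ratio of -0.15, and the 19 listed ones held 7.96% of the overexpression library's counts, against 9.0% of the control library's; their part in the share of the ribosomal proteins was not tested.

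Most members were lower by a small and similar amount. Among the 67 members that were not low, the ratio of CPM had a median of 0.948, with quartiles of 0.929 and 0.964, and all but RPL21 lay between 0.887 and 1.04. In 54 of all 75 measured members the counting interval of the ratio lay wholly below 1, where it did so in 10.9% of all measured genes. It lay wholly above 1 in 1 member, RPL7A, where it did so in 15.9% of all measured genes. These shares are not like for like, because an interval narrows with counts. The members had median levels of 370 CPM in the overexpression library and 400 CPM in the control library, against 0.564 and 0.577 CPM over all listed genes. Such shares were not computed for other genes of like level. By size, 1 of the 75 members was at least 1.5-fold different on the scale of CPM plus 1, again RPL7A, against 1.66% of all measured genes. It was higher, as were 1.02% of all measured genes, and 0 members were at least 1.5-fold lower, against 0.643% of all measured genes.

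RPL21, a 60S protein, was the member outside that range. It had 11875 counts in the overexpression library and 13687 in the control library, or 248 and 316 CPM. Its ratio was 0.785 (0.758 to 0.813). RPS12 had the next lowest ratio of the members that were not low, 0.887 (0.867 to 0.908), from 29124 counts in the overexpression library and 29718 in the control library. RPL10, which joins the 60S subunit late in its assembly, stood at 0.894 (0.873 to 0.916). Of the 40S genes RPS13 stood at 0.913 (0.888 to 0.938). At the upper end, the intervals of RPL6, at 1.0 (0.981 to 1.02), and RPL37, at 1.01 (0.975 to 1.04), held 1. So did those of RPL39L, a paralog of RPL39, at 1.04 (0.944 to 1.15), and RPS15A, at 0.996 (0.937 to 1.06).

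By role, the members of most working parts stood on the same side, below 0. So did 70 of all 75 measured members (93.3%), so this does not set any part off from the family. The exception was the mRNA entry channel (RPS2, RPS3 and RPS9), where RPS2 stood higher. It had 89 counts in the overexpression library and 52 in the control library, and its interval held 1. The 3 stalk proteins were all lower, with ratios of 0.961 for RPLP0, 0.905 for RPLP1 and 0.959 for RPLP2. RPL5 and RPL11, which bind 5S ribosomal RNA and can hold the p53 ligase MDM2, stood at 0.937 (0.918 to 0.957) and 0.948 (0.923 to 0.973). All 8 listed proteins around the exit tunnel of the nascent chain were below 0 on the log2 scale, with a median of -0.08. So were the 16 measured genes among 17 tied to Diamond-Blackfan anaemia, an inherited failure of red cell production: 7 of the 40S, such as RPS19 at 0.951 (0.921 to 0.983), and 9 of the 60S. RPS27A, whose protein is made as a fusion to ubiquitin, stood at 0.926 (0.906 to 0.948), and RPSA, also known as the laminin receptor, at 0.956 (0.940 to 0.973). RPS3, at the mRNA entry channel, stood at 0.976 (0.956 to 0.996).

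**Figure D2:**
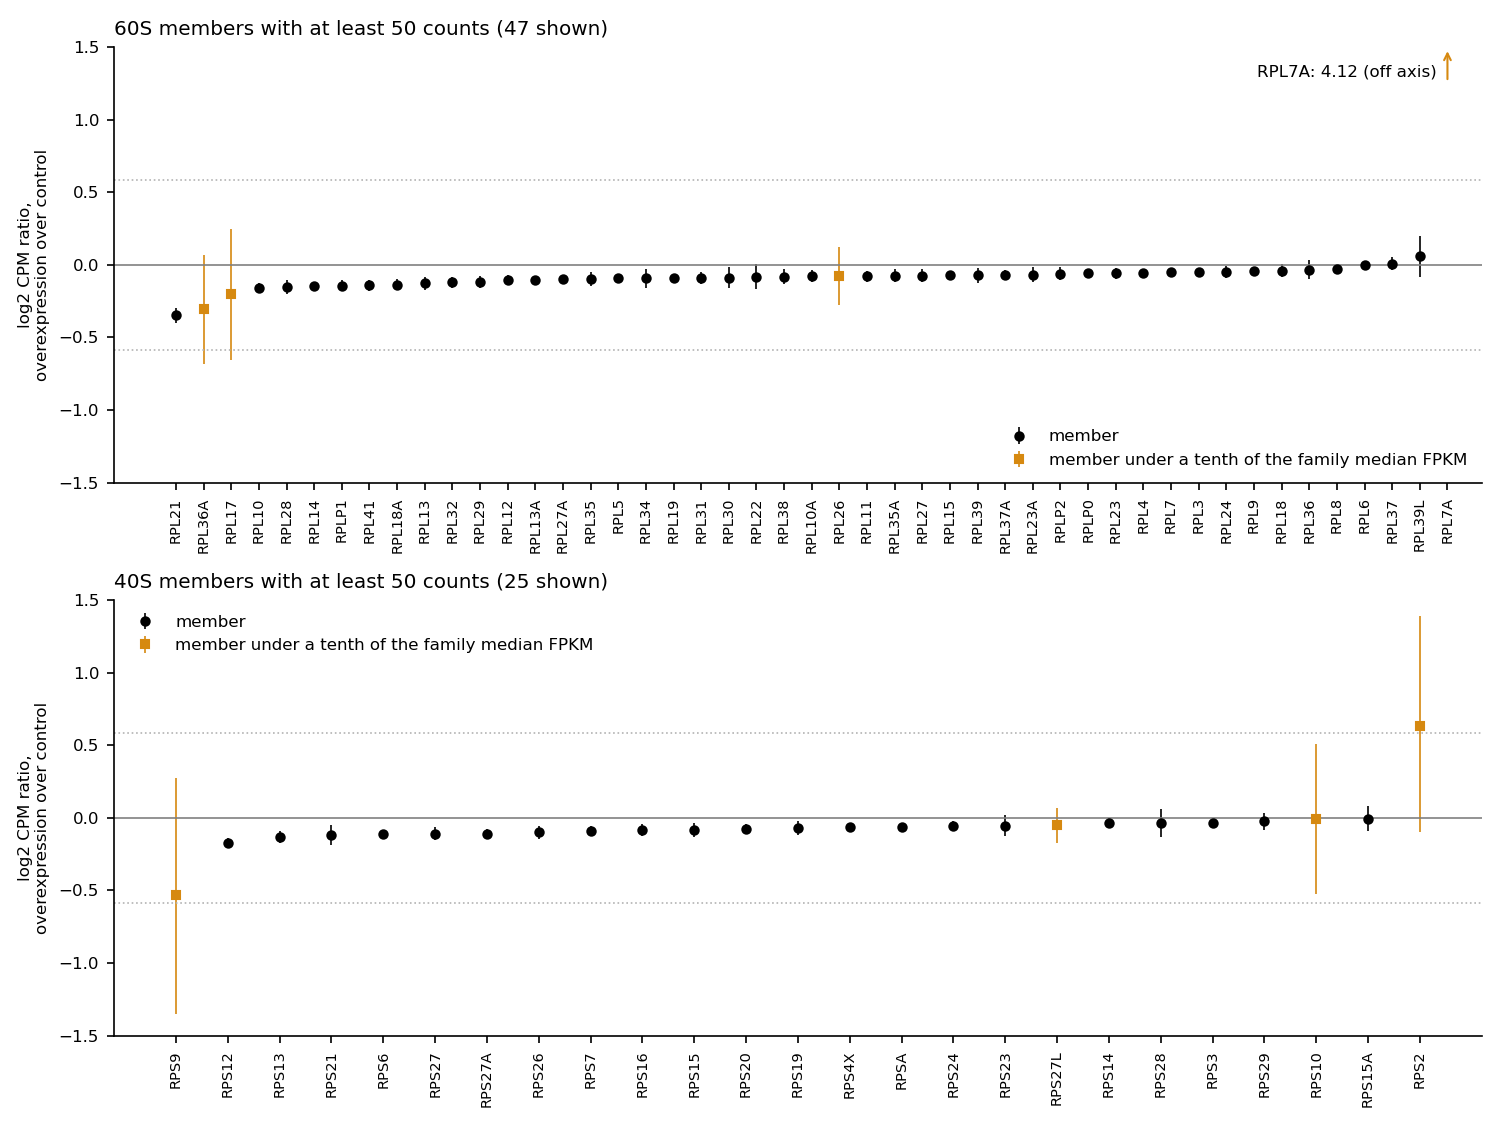
Log2 ratio of CPM, overexpression over control, of 47 genes of the 60S subunit and 25 of the 40S subunit with at least 50 counts, with 95% counting intervals; dotted lines mark 1.5-fold and orange squares the members under 0.1 times the family median FPKM. Most points lie just below 0, RPL21 lies lower, and RPL7A lies above the drawn range.

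Far below the rest stood 12 members whose FPKM was under 0.1 times the family median in both libraries, a line at 11.4 FPKM in the overexpression library and 12.6 FPKM in the control library. They were 5 genes of the 60S (RPL26, RPL17, RPL36A, RPL7A, RPL10L) and 7 of the 40S, among them RPS27L, RPS10, RPS2, RPS9, RPS3A and RPS18. Together they held 4218 counts in the overexpression library and 3743 in the control library. Just above the line by the control level came RPS15A, at 13.7 and 13.9 FPKM in the overexpression and control libraries, RPS29 at 19.4 and 19.8, RPL22 at 20.3 and 21.6, and RPL39L at 35.2 and 34.0. The length behind the FPKM of RPS29 was 9840 bases, as worked out from the deposited counts and FPKM, and without length it stood at 191 CPM in the overexpression library and 195 CPM in the control library. Of the 12, 2 are paralogs of limited or conditional use, RPL10L, a testis retrogene with 6 counts in the overexpression library and 0 in the control library, and RPS27L, a p53-inducible copy of RPS27 at 49.5 and 51.4 CPM. The other 10 encode standard parts of every ribosome.

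RPS18, a protein of the 40S head (ENSG00000231500; GRCh38 chromosome 6, 33272010 to 33276510, plus strand), had 1 count in the overexpression library and 0 in the control library, where the floor of 3 counts equals 0.0692 CPM. RPS3A, on the platform of the 40S subunit (chromosome 4, 151099573 to 151104652, plus strand), had 12 counts in the overexpression library and 19 in the control library. Both genes were under the count minimum, so no ratio is given.

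RPS2, at the mRNA entry channel (ENSG00000140988; chromosome 16, 1962052 to 1964860, minus strand), had 89 counts in the overexpression library and 52 in the control library, or 1.86 and 1.20 CPM. Its ratio of 1.55 had an interval of 0.934 to 2.62, which holds 1. RPS9, which lines the same channel (ENSG00000170889; chromosome 19, 54200742 to 54249003, plus strand), had 49 counts in the overexpression library and 64 in the control library. Its ratio of 0.693 had an interval of 0.392 to 1.21. RPS10, in the 40S head (chromosome 6, 34417454 to 34426125, minus strand), had 137 and 125 counts, with a ratio of 0.992 (0.694 to 1.42). None of these 3 low 40S genes differed beyond counting error.

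RPL7A, a 60S protein (ENSG00000148303; chromosome 9, 133348214 to 133351426, plus strand), had 307 counts in the overexpression library and 16 in the control library. That is 6.41 CPM in the overexpression library and 0.369 CPM in the control library, a ratio of 17.4 (8.60 to 41.0), and a log2 ratio of 2.44 on the scale of CPM plus 1. In the authors' deposited table its log2 fold change is 4.10. Even in the overexpression library its level, 2.86 FPKM, lay under 0.1 times the family median. RPL17, at the exit tunnel, had 166 counts in the overexpression library and 173 in the control library. RPL36A, near the exit site of transfer RNA, had 230 and 257, and RPL26, which also binds p53 mRNA, had 849 and 811. The intervals of these 3 ratios held 1.

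Many counts of the low members' families were on pseudogene rows. By symbol or description 712 rows were pseudogenes of 76 of the members, with 100546 counts in the overexpression library and 96168 in the control library. In the control library the pseudogene rows of 11 of the 12 low members held more counts than the member's own row (for RPL10L only 2 against 0), and in the overexpression library those of 10 of the 12. Among the other 67 members none did so in either library. The median share of pseudogene rows in such a sum was 92.9% in the overexpression library and 98.6% in the control library over the low members, and 1.17% in each over the others. Both measures hold the own row, for which the low members were chosen, so they are a description and not a separate finding. The counts on pseudogene rows alone overlapped between low and other members: their median was 1155 in the overexpression library and 1116 in the control library over the low members, against 237 and 241 over the others. RPL7 and RPL10, which were not low, had 7198 and 5068 in the overexpression library and 6773 and 4784 in the control library, more than RPL7A, RPL17, RPL26 or RPS10.

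RPS2 had 18982 counts on its 32 pseudogene rows in the overexpression library and 18457 in the control library. A single one, RPS2P5, held 15028 in the overexpression library and 14559 in the control library. RPL7A had 4138 and 3865 counts on such rows, of which RPL7AP6 held 3586 in the overexpression library and 3424 in the control library. RPS9 had 9171 and 8575 counts on 3 rows, and RPS18 had 4520 and 5011 on 6 rows, with the overexpression library first. RPL10L and RPS27L, the 2 paralogs, had at most 2 counts on pseudogene rows in either library.

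**Figure D3:**
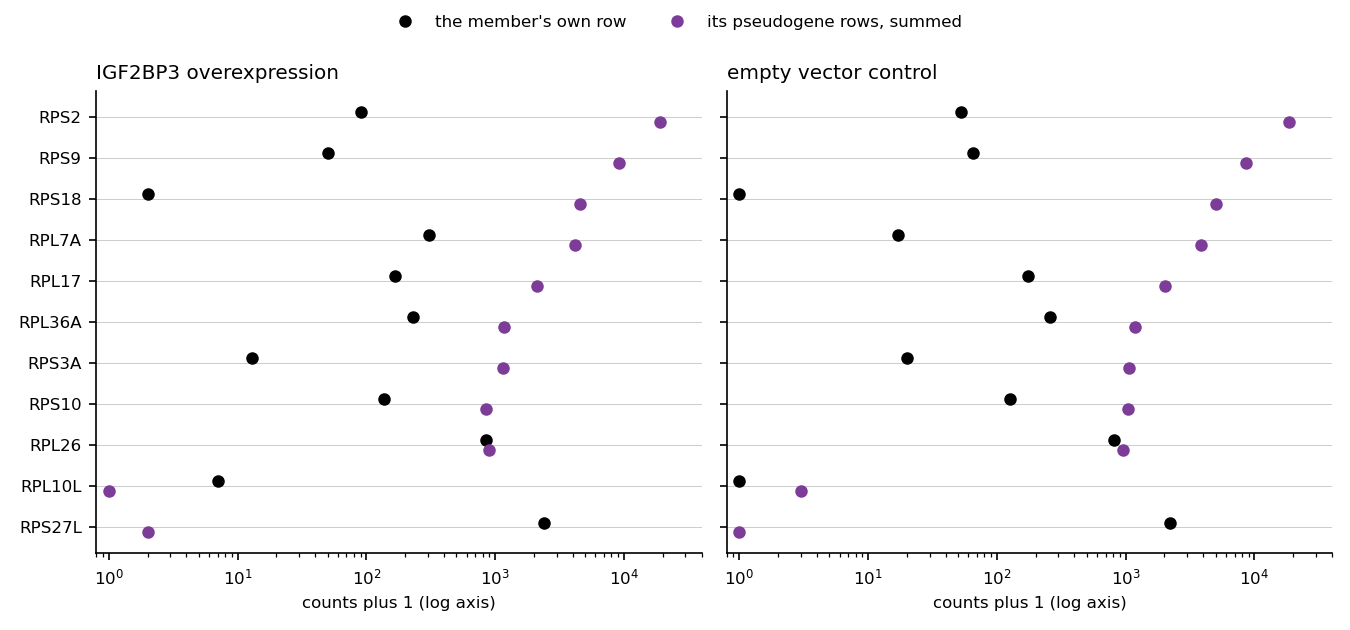
Counts plus 1 (log axis) on the own row (black) and on all pseudogene rows together (purple) of 11 low members, in the overexpression library (left) and the control library (right). The purple point lies far to the right of the black one in most of them, as in RPS2 with 18982 against 89 counts in the overexpression library; in RPL26 the points nearly meet, and in RPS27L their order is the other way round.

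The stretches below are 90 bases from the middle of the coding sequence of 3 low members in GENCODE release 29 (GRCh38). Each is set beside the best ungapped match in the member's most counted pseudogene, 5′ to 3′, with differing bases in capitals. They show how little separates each pair over that stretch, and the rest of the coding sequence was not aligned. All member stretches are exonic and coding, and each pseudogene is a processed one, without introns.
RPS2 (coding bases 397 to 486): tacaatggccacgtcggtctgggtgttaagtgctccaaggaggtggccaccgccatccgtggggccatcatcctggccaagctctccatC
RPS2P5 (chromosome 12, 118246084 to 118246962, plus strand): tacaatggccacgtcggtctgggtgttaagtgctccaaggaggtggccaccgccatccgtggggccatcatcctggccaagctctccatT
RPL7A (coding bases 356 to 445): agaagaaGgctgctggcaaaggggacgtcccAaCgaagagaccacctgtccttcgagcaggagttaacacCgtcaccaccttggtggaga
RPL7AP6 (chromosome 14, 69885340 to 69886140, minus strand): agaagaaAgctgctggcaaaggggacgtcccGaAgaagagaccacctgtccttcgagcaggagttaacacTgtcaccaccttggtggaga
RPS9 (coding bases 248 to 337): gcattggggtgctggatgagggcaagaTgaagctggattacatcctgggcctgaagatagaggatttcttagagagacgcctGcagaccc
RPS9 pseudogene ENSG00000243829 (chromosome 19, 49719498 to 49720081, minus strand): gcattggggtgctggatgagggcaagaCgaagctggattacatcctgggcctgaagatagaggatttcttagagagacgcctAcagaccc
The pairs differ at 1, 4 and 2 of 90 bases, in the order shown.

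Shared coding sequence was frequent in low and other members alike. The share of a member's coding 31-base words that also occurs in the annotated transcripts of a gene elsewhere had a median of 85.4% over the 12 low members and 71.8% over the 67 others. It was 100% in 3 low members (RPS3A, RPS10, RPL36A), but also in 5 others, among them RPL21, RPL39 and RPS26, which stood at 113, 124 and 164 FPKM in the overexpression library and at 144, 132 and 177 FPKM in the control library. Across the 79 members the share and the control level had a Spearman rho of 0.03, as a description of genes whose levels come from the same library. The exons of 9 of the 79 members overlap a protein-coding gene on the same strand, 5 of the 12 low members (RPS10, RPL17, RPL26 and RPL36A among them) and 4 of the 67 others. In RPS10, RPL17 and RPL36A that gene is a readthrough gene, named after the member and its neighbour. Of those 4, RPS15A and RPL22 lay just above the line. How the authors' counting treated shared or overlapping sequence is not stated in the labels or file headers, and the part of either trait in the low values was not tested.

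**Figure D4:**
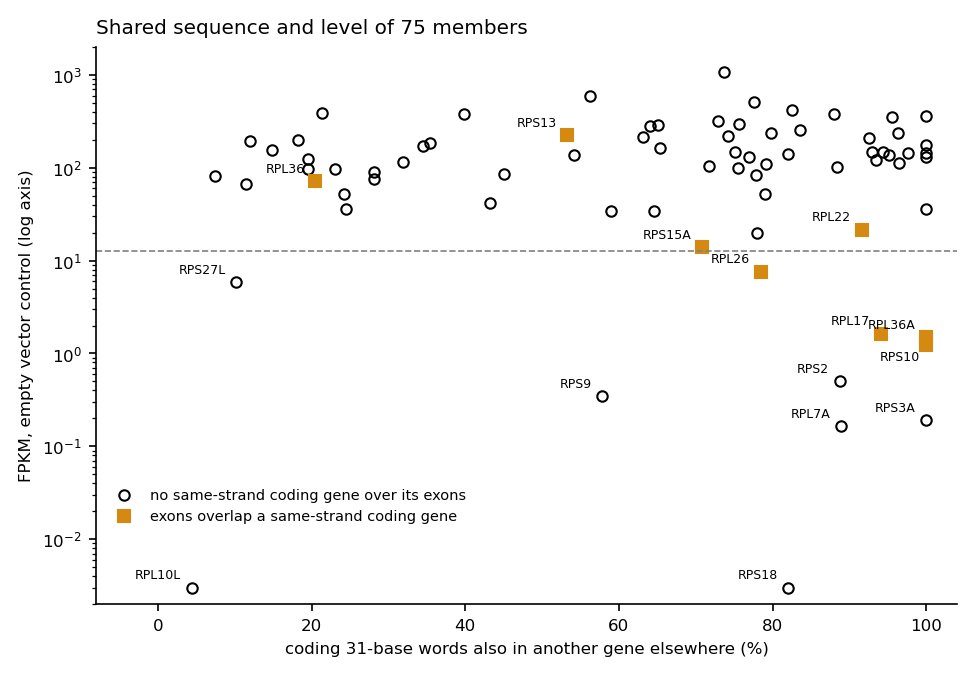
Percent of each member's coding 31-base words that also occur in another gene elsewhere, against its FPKM in the control library (log axis), for 75 members; orange squares have exons that overlap a same-strand coding gene, the dashed line is 0.1 times the family median, and the 2 points at the lower edge are genes listed at 0. Members above the line are found along most of the horizontal range. Of the low members drawn, the paralogs RPL10L and RPS27L lie at 4.39% and 10.2%, and the others at 57.8% (RPS9) or more. Of the 8 squares 4 lie below the line.

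Adding the pseudogene rows to the member's own row, a sum chosen after the data were seen, gave several low members a higher level. Such a sum cannot lie below the own row, for which the low members were chosen. A rise was thus fixed in advance, and the sums are a description only. The sum for RPS2 was 398 CPM in the overexpression library and 427 CPM in the control library, close to the family medians of such sums, 405 and 430 CPM. The sum for RPS9 was 193 CPM in the overexpression library and 199 CPM in the control library. Since these sums have no length, they were set against the members low by CPM, also 12, with RPL39L in place of RPS27L. Of those, 5 then stood above 0.1 times the median (RPL7A, RPL17, RPS2, RPS9 and RPS18). The other 7, among them RPS3A, RPS10, RPL26, RPL36A, RPL10L and RPL39L, still lay below it in both libraries.

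For RPL7A the sum was 4445 counts in the overexpression library and 3881 in the control library, with a ratio of 1.04 (0.975 to 1.10). The ratio of its own row was 17.4. The own row gave only 307 and 16 of these counts, so the ratio of the sum is mostly that of the pseudogene rows. The sum for RPS2 had a ratio of 0.933 (0.906 to 0.960), inside the range of the other members. The sums for RPS18, at 0.817 (0.771 to 0.865) from 4521 and 5011 counts, and RPS10, at 0.766 (0.678 to 0.865) from 991 and 1171 counts, were lower than the ratios of most members. In RPS18 both large pseudogene rows stood on that side, RPS18P12 at 0.833 (0.778 to 0.891) and RPS18P5 at 0.772 (0.689 to 0.865). Summed over the whole family, own rows had a ratio of 0.946 (0.944 to 0.949) and pseudogene rows one of 0.946 (0.935 to 0.958). Row by row the 2 sets were less alike. Of 127 pseudogene rows with at least 50 counts 75 (59.1%) were below 0 on the log2 scale, with a median of -0.04. Among the members 70 of 75 (93.3%) were below 0, with a median of -0.08. Large rows weigh most in the sum, and RPS2P5 alone held 15028 of its 100546 counts in the overexpression library.

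Other genes of the ribosome and of translation came from fixed lists. FAU, which encodes a ribosomal protein fused to a ubiquitin-like one and lies outside the symbol rule, had a log2 ratio of -0.04. Ribosome biogenesis factors were mostly lower: 36 of 40 were below 0, with a median of -0.10. Against them FBL, the methyltransferase of box C/D particles, stood at 1.08, with 335 counts in the overexpression library and 121 in the control library. That is 7.00 and 2.79 CPM, far below the list's medians of 94.7 CPM in the overexpression library and 101 CPM in the control library. NOP2, a ribosomal RNA methyltransferase with 40 and 60 counts, stood at -0.38, but the interval of its ratio (0.325 to 1.10) held 1. RRP9 stood at -0.30. FBL was the one member of that list at least 1.5-fold different.

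Other TOP mRNAs, mainly of translation factors, had a median of -0.05, with 11 of 17 below 0. EEF1B2, an exchange factor of elongation, stood apart at -1.81, with 3534 counts in the overexpression library and 11337 in the control library, a ratio of 0.282; PABPC4 and EIF3F stood at -0.12 each. The subunits of eIF3, 3 of which are also in the TOP list, had a median of -0.06 with 7 of 12 below 0, and EIF3C at 0.19 and EIF3G at -0.15 were furthest from 0. RNA polymerase I and its factors had a median of -0.04 with 9 of 13 below 0, POLR1C at -0.28 and POLR1E at -0.21. Import factors and chaperones of ribosomal proteins had a median of -0.0051 with 6 of 11 below 0, TNPO1 at 0.30 and RPS19BP1 at -0.18. Regulators of TOP mRNA translation had one of -0.0027 with 7 of 12 below 0, EIF4EBP1 at -0.18 and LARP4 at 0.14. Of the paralogs outside the rule, RPL36AL stood at -0.09, RPL22L1 at -0.06, RPL7L1 at 0.01 and RPL26L1 at 0.0091.

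**Figure D5:**
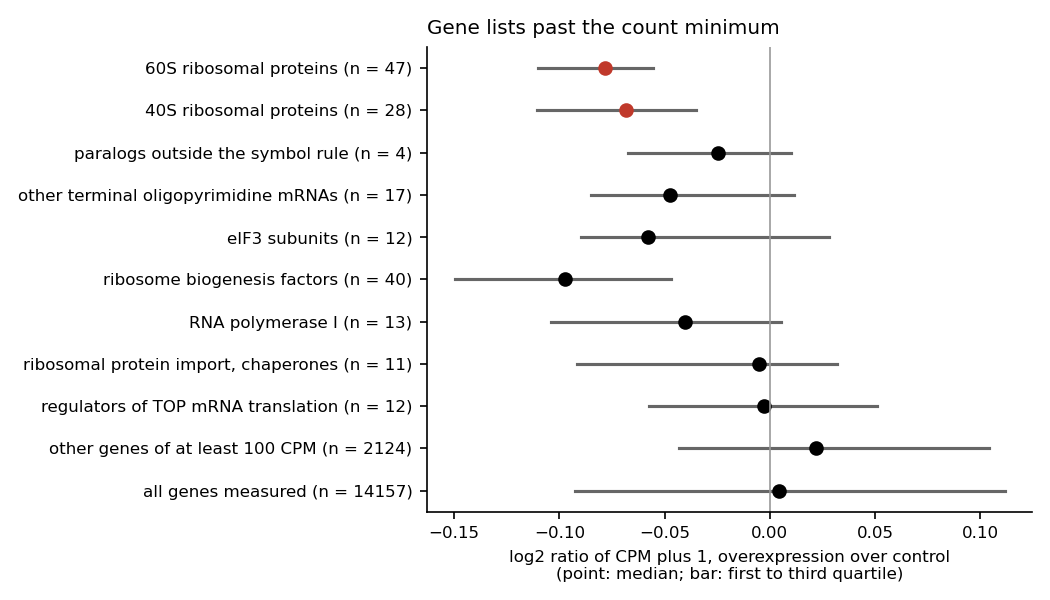
Median log2 ratio, overexpression over control, on the scale of CPM plus 1 (points), with the lower to upper quartile (bars), for the 60S and 40S genes (red), related gene lists and all genes with at least 50 counts. The medians of the 60S genes (-0.08), the 40S genes (-0.07) and the biogenesis factors (-0.10) lie below 0, and that of the other genes of at least 100 CPM lies at 0.02.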

How the data were processed

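Poly(A) RNA of 1 overexpression and 1 control culture was sequenced after a dUTP library preparation with PCR, per the labels' protocols. The authors deposited whole-number counts per gene, FPKM values and a log2 fold change, per the file headers. The submitters' processing notes name GRCh38; for the aligner, counter, strand setting and annotation, nothing was given in the sources used here. Libraries were scaled by TMM (edgeR 4.0.16, R 4.3.3); differences are log2 ratios of CPM plus 1 among genes with at least 50 counts. Of counts from 1 to 20, 63.3% were even in the overexpression library and 64.1% in the control library, so 95% exact (Clopper-Pearson) intervals were computed from counts divided by 2. They and the floor of 3 counts cover counting error only. Genes named were the low members and the 4 just above them, those at least 1.5-fold different, the 4 highest levels and 4 highest and lowest ratios per subunit, role groups, and the members of other lists furthest from 0; some genes that this rule names are not reported here. Members, lists and rules were chosen with earlier results of these data known. Positions and words came from GENCODE release 29, which held all 79 members. The calculation was tested on simulated data with counting error only and with intervals from undivided counts, so the intervals from counts divided by 2 were not tested. Alternatives were other scalings (library totals, DESeq2 1.42.0), FPKM, pseudocounts, count minimums, and, added later, sums with pseudogene rows. Python 3.11.15, numpy 2.4.6, pandas 2.3.3, scipy 1.17.1 and matplotlib 3.10.9 were used.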

Additional observations from a re-analysis of the deposited data

How the results depend on the processing

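The medians of the 60S genes, the 40S genes and all members stayed below 0 under all 10 alternatives run, from library totals, DESeq2 size factors, FPKM, other pseudocounts and other count minimums to leaving out the low members or adding pseudogene rows. The number of members at least 1.5-fold different, 1 as reported, was 2 with a pseudocount of 0.1 CPM, and 0 without the low members or with pseudogene rows added. With FPKM in place of counts the 60S share was 2.46% in the overexpression library and 2.52% in the control library, the 40S share 1.68% and 1.73%, and the ratio of the subunits 1.46 and 1.45. With pseudogene rows added the 60S share was 2.42% and 2.57%, the 40S share 1.35% and 1.44%, and the ratio 1.79 and 1.79. Without the low members the 40S share was 1.23% and 1.31%. The log2 ratio of RPL7A was 3.80 with a pseudocount of 0.1 CPM, 1.09 with one of 5 CPM and 0.05 with pseudogene rows added; that of RPS2, whose interval held 1, was -0.10 with them, against 0.38 as reported. With intervals from the counts as deposited, 25 members were checked singly. Of these, 3 newly left out 1: RPS2 (1.09 to 2.23), RPL36A (0.675 to 0.972) and RPL8 (0.966 to 0.994). Over all 75 measured members such intervals left out 1 in 61, against 55 from counts divided by 2. The count of 12 low members was 15 under the median divided by 4 and 11 under the median divided by 20, and 12 by CPM, of which 11 were the same genes, with RPL39L in place of RPS27L. No paired analysis was possible because each group holds 1 library, and for the same reason no library could be left out. Depth limits the low members, whose intervals are wide.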
